A study of Mus musculus with 37 samples.

Results

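A set of 10 genes that are recurrently mutated in human urothelial carcinoma were followed at the mRNA level: Kmt2d, Kmt2c, Kdm6a, Arid1a, Ep300, Crebbp, Stag2, Pik3ca, Tsc1 and Hras. They were taken by symbol, and all 10 were found among the 24421 gene symbols of the count table, in all 37 libraries. Female wild-type BALB/c mice drank water with BBN, a nitrosamine carcinogen of the bladder and upper urinary tract, for 18 weeks, or tap water alone. UT is the ureter of the side with cancer (11 libraries of 10 BBN mice, since mouse 5 gave both ureters), UN the ureter of the side without cancer (7 libraries of 7 BBN mice), and U the ureter of mice without BBN (6 libraries, both ureters of 3 mice). Bladders came from 10 BBN mice and from the 3 mice without BBN. All mice were of the same strain and sex and carried no engineered allele. In all, 7 mice gave both UT and UN. The 6 U libraries came from 3 mice, and p-values that treat them as separate samples are too small where the ureters of 1 mouse are alike. The libraries were made from whole pieces of tissue, so fewer cells of a type and less RNA per cell cannot be told apart.

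Kmt2d and Kmt2c are methyltransferases of histone H3 lysine 4 at enhancers, and Kdm6a, which sits in the same complexes, removes the repressive mark of histone H3 lysine 27. Arid1a is a DNA-binding subunit of the SWI/SNF remodeller, Ep300 and Crebbp are paralogous histone acetyltransferases, and Stag2 is a subunit of the cohesin ring. Pik3ca is a catalytic subunit of PI3 kinase, Tsc1 forms with Tsc2 the brake on mTOR complex signalling, and Hras is a RAS GTPase. In urothelial cancer these genes are known for their mutations. Mutations were not analysed here, and an mRNA level does not show whether a gene is mutated.

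Totals, in mega-counts (M), ranged from 9.72 to 16.7 M in UT, 4.68 to 15.0 M in UN, 12.98 to 18.8 M in U, 3.56 to 15.1 M in BBN bladder and 14.3 to 16.6 M in untreated bladder. 4 libraries, UN 6 and BBN bladders 1, 3 and 4, held fewer than 9 M and had low RNA integrity, and values without them are given beside the results that they move. The lowest count of any of the 10 genes in a library was 27, for Tsc1 in BBN bladder 1. Library U 3L stood apart from the other untreated ureters, with the lowest level of 9 of the 10 genes and the highest of Hras. UN 2 had the lowest level of 8 of the 10 genes in its group, and its 12 urothelium markers summed to 34.2 CPM (counts-per-million), against a median of 5653 CPM in UN. The tissue markers differed between groups. In UT against U, 8 of 8 smooth muscle markers (led by Myocd, Acta2 and Myh11) and 5 of 5 adipocyte markers (led by Adipoq, Cidec and Lep) were lower, 7 of 8 leukocyte markers (led by Cd14, Cd68 and Itgam) were higher, and of 12 urothelium markers 5 were higher and 2 lower (led by Upk1a, Epcam and Krt5). Of the 4 kidney tubule markers tested, 4 were higher (led by Slc34a1, Aqp2 and Umod), but their summed level was 2098 CPM in UT 4 against a median of 3.60 CPM in UT and 1.01 CPM in U, so these 4 values rest largely on 1 library. In BBN bladder, 6 of 12 urothelium markers were lower, led by Upk2, Upk1a and Upk1b. Summed CPM of urothelium markers ranged from 1349 to 10206 in UT, 1709 to 3393 in U, 1400 to 12201 in BBN bladder and 21965 to 23043 in untreated bladder. Of the adipocyte markers it ranged from 33.1 to 13420 in UT, 16484 to 24133 in U, 40.9 to 1895 in BBN bladder and 395 to 1126 in untreated bladder. No marker of any list was at 0 in every library of a group. The part of tissue composition in the results was not tested.

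**Figure D1:**
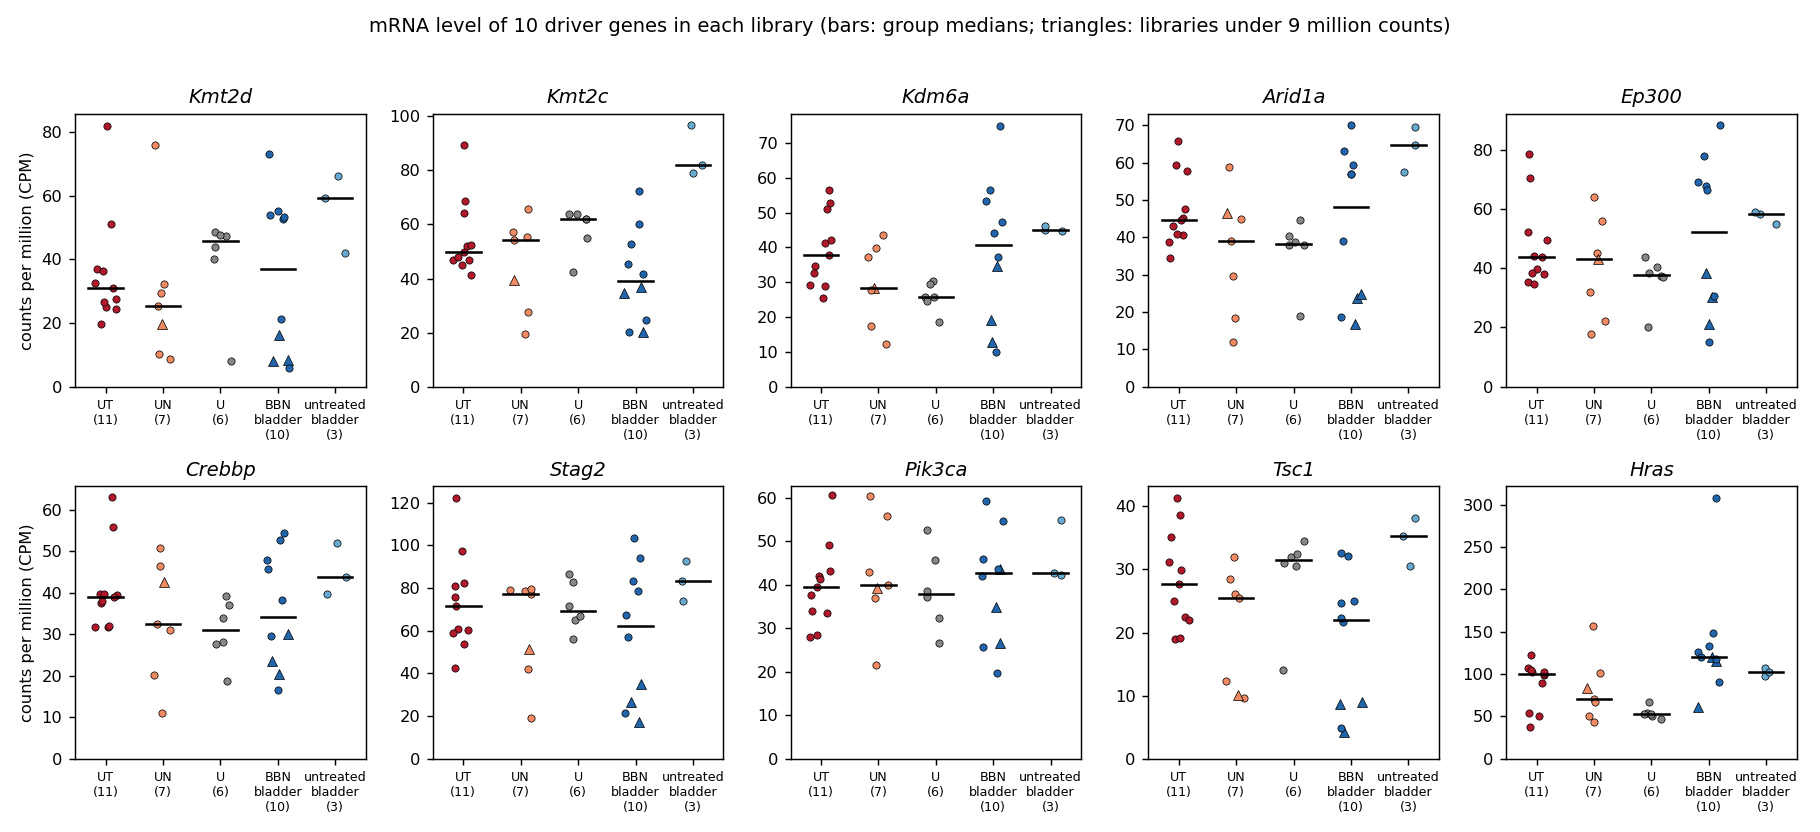
The vertical axes show CPM and start at 0, and each point is 1 library, with the group median as a bar and libraries under 9 M counts as triangles. UT and U overlap for all 10 genes, while the 6 U libraries lie below the 3 untreated bladders for Kdm6a, Arid1a, Hras, Kmt2c, Ep300 and Crebbp. CPM are scaled by library totals alone, under which 8123 of 15318 genes tested were lower in U than in untreated bladder. With TMM normalization only Kdm6a, Arid1a and Hras of these 6 passed an FDR of 0.1. The share of all genes whose groups separate in this way was not counted.

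Per kilobase of annotated exon, Hras was the most abundant of the 10 mRNAs and Kmt2d the least. Hras had the highest CPM per kilobase in 35 of 37 libraries, and Stag2 was second in 33. Kmt2d was last in 35 of 37 libraries. The group medians of Hras ran from 16.9 CPM per kilobase in U to 38.7 in BBN bladder, those of Stag2 from 9.86 in BBN bladder to 13.2 in untreated bladder, and those of Kmt2d from 1.28 in UN to 2.99 in untreated bladder. The 7 other genes lay between 2.62 and 7.59 CPM per kilobase in every group. In U, Arid1a, Kdm6a, Pik3ca, Kmt2c, Tsc1 and Ep300 had medians of 4.47, 4.32, 4.17, 4.15, 4.06 and 3.96, and the ranges of neighbours in that order overlapped. The annotated exons of the 10 genes ranged from 3.10 kilobases (Hras) to 19.8 kilobases (Kmt2d). In the GENCODE annotation of GRCm38, Kmt2d and Ep300 lie on chromosome 15 (98831669 to 98871204, minus strand, and 81585351 to 81652077, plus strand), Kmt2c on chromosome 5 (25271798 to 25498783, minus) and Crebbp on chromosome 16 (4081328 to 4213997, minus). Kdm6a and Stag2 lie on chromosome X (18162575 to 18279936 and 42149317 to 42277185, both plus) and Arid1a on chromosome 4 (133679008 to 133756769, minus). Pik3ca lies on chromosome 3 (32397671 to 32468486, plus), Tsc1 on chromosome 2 (28641228 to 28691167, plus) and Hras on chromosome 7 (141189105 to 141194005, minus). Exons of Kmt2c share 274 bases with Gm42585 on the other strand, and counts of such bases cannot be assigned without strand. Exons of Ep300 share 54 bases with the miRNA gene Gm23880 on the same strand.

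The first comparison asked whether the cancerous ureter differed from the untreated ureter in the mRNA of these genes. None of the 10 genes passed an FDR of 0.1 in UT against U, in a comparison in which 30.1% of the 15658 genes tested were higher and 22.4% were lower, and 30.9% passed with a change of at least 2-fold as well. By edgeR without adjustment none of the 10 had a p under the threshold of 0.05, and with DESeq2 only Kmt2c passed the FDR (log2 fold change -0.39, adjusted p = 0.0752). Of the 15658 genes 8142 had such a p by edgeR, and DESeq2 called 4769 higher and 3928 lower. The log2 fold changes of the 10 genes ran from -0.41 for Kmt2d to 0.43 for Hras, with a median of -0.07, against 0.11 for all genes tested. All 10 intervals lay inside a 2-fold change except that of Kmt2d, which reached -1.12.

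Among the chromatin regulators, Kmt2c was 0.36 lower on the log2 scale with the smallest adjusted p of the 10 (log2 fold change -0.36, SE 0.18, 95% interval -0.73 to 0.02, adjusted p = 0.112). Its CPM was 41.4, 49.9 and 89.3 (lowest, median and highest) in UT and 42.4, 62.0 and 63.8 in U. Of the 11 UT libraries 3 were above every U library and 1 was below all of them, and the ranges overlapped. Kmt2d, the close relative of Kmt2c, had a log2 fold change of -0.41 (SE 0.34, adjusted p = 0.343). Kdm6a was at 25.5, 37.8 and 56.6 CPM in UT and 18.7, 25.7 and 30.4 CPM in U. Of the 11 UT libraries 8 were above every U library, but the fitted log2 fold change was 0.32 (SE 0.19, 95% interval -0.07 to 0.72, adjusted p = 0.174). For Arid1a, Ep300 and Crebbp the log2 fold changes were 0.10, 0.13 and 0.12, with intervals between -0.39 and 0.59. Stag2 had -0.24 (95% interval -0.67 to 0.18).

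Of the signalling genes, Pik3ca had a log2 fold change of -0.24 (95% interval -0.60 to 0.11) and Tsc1 of -0.31 (95% interval -0.74 to 0.11, adjusted p = 0.218). Hras was at 37.7, 99.6 and 123 CPM in UT and 47.0, 52.5 and 67.3 CPM in U. In all, 8 UT libraries were above all U libraries and 1, UT 9, was below them, and the log2 fold change was 0.43 (SE 0.27, 95% interval -0.12 to 0.98, adjusted p = 0.194). UT 9 also had the lowest summed urothelium markers (1349 CPM) and the highest adipocyte markers (13420 CPM) of UT. A drawing of the study leaves UT 9 out, with no reason given in the sources used here, and it was kept as labelled. Without it the log2 fold change of Hras was 0.46 (adjusted p = 0.137), and Kmt2c alone passed (-0.44, adjusted p = 0.0586).

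These values depend on the scaling of the libraries. With library totals as the only scaling, a choice made after seeing the data, the median of all genes in UT against U moved from 0.11 to 0.39, and Kdm6a (0.61, adjusted p = 0.0352) and Hras (0.71, adjusted p = 0.0267) passed as higher. Under that scaling 6535 of the 15658 genes were higher and 2215 lower, so 2 of 10 higher is not above the background. Without U 3L, Kmt2c (-0.41, adjusted p = 0.0891) and Tsc1 (-0.44, adjusted p = 0.0795) passed as lower. With only the libraries of UT and U in the fit, Kdm6a (0.32, adjusted p = 0.0798) passed as higher and Kmt2c (-0.36, adjusted p = 0.0374) as lower, where 5202 of 15357 genes were higher and 3933 lower. Kmt2c also passed without each of UN 3, UN 6, UT 8 and UT 9, with adjusted p between 0.0446 and 0.0667. The library codes fall into 2 ranges. In the first, with 8 UT, 6 UN and 6 U libraries, Kmt2d (-0.75), Kmt2c (-0.50) and Stag2 (-0.49) passed as lower and Hras (0.54) as higher. Of 15496 genes in that fit 4422 were higher and 3709 lower, so 3 of 10 lower is close to the background and 1 of 10 higher is under it. The second range holds no untreated library.

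**Figure D2:**
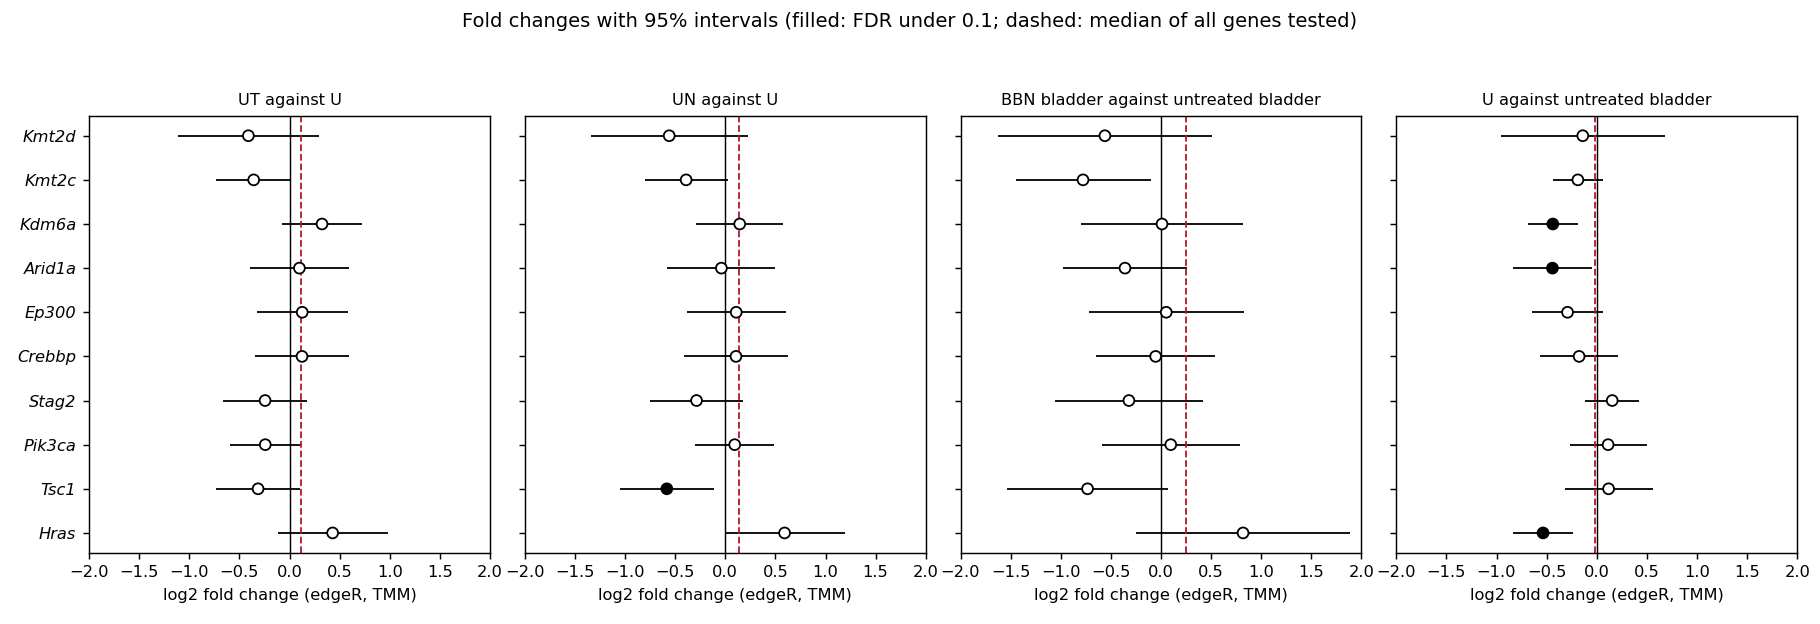
Points are log2 fold changes and lines their 95% intervals for the 10 genes in 4 comparisons. Filled points passed an FDR of 0.1 and the dashed line is the median of all genes tested: no point is filled in UT against U or in the bladder comparison, 1 (Tsc1) in UN against U, and 3 (Kdm6a, Arid1a and Hras) in U against untreated bladder.

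The comparison of UN with U shares its 6 control libraries with that of UT. In the ureter of the side without cancer, Tsc1 was lower than in U, and the other 9 genes did not pass. In UN against U, 16% of genes tested were higher and 4% lower, and 13.7% passed with a change of at least 2-fold, which no member did. The 2502 higher and 626 lower genes became 994 and 946 when mouse was a random effect, and in the first code range 2746 and 1645, and the lower genes ranged from 291 without UN 3 to 1090 without UN 9. Of the tissue markers, 5 of 8 leukocyte markers were higher in UN than in U, 2 of 12 urothelium markers were higher and 1 lower, and their part in the results was not tested. Tsc1 was at 9.69, 25.5 and 31.9 CPM (lowest, median and highest) in the 7 UN libraries and at 14.1, 31.5 and 34.5 CPM in the 6 U libraries. The ranges overlapped, with UN 2 the lowest library and U 3L the lowest of its group. The log2 fold change was -0.58 (SE 0.23, 95% interval -1.05 to -0.12, adjusted p = 0.0898). The call was lost without UN 1, 2, 3, 6 or 7, without U 1R, 1L, 2R, 2L or 3R and without UT 3 or UT 7, with adjusted p up to 0.188, and held without U 3L (-0.71, adjusted p = 0.0375). Without UN 6 (-0.59, adjusted p = 0.107), Kmt2c passed instead (-0.53, adjusted p = 0.0860). With the mouse as a random effect, since U comes from 3 mice, the adjusted p of Tsc1 was 0.133. It was 0.265 with library totals as the only scaling, 0.109 with no filter and 0.122 with only these 2 groups. In the libraries of the first code range Tsc1 had -0.78 (adjusted p = 0.0256).

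The log2 fold changes of the other genes in UN against U were -0.56 for Kmt2d, -0.39 for Kmt2c, 0.14 for Kdm6a, -0.04 for Arid1a, 0.11 for Ep300, 0.11 for Crebbp, -0.29 for Stag2, 0.09 for Pik3ca and 0.59 for Hras. Hras came nearest to the threshold of these (95% interval -0.01 to 1.19, adjusted p = 0.177). Its log2 fold change ran from 0.37 to 0.70 over the libraries left out in turn. UN was the most variable ureter group: from the lowest to the highest library Kmt2d varied 8.89-fold, Arid1a 4.95-fold and Crebbp 4.58-fold. In 8 of the 10 genes the lowest UN library was UN 2.

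Between the sides, UT against UN, 2.41% of genes were higher and 6.21% lower, 5.52% of genes passed with at least 2-fold, and none of the 10 genes passed. These shares rest on single libraries: of 377 higher and 973 lower genes 5 and 14 were left without UN 2, 5 and 1 without UN 6, 6 and 1 without UT 2, 13 and 10 without UT 5R, 4 and 1 without UT 5L and 13 and 3 without UT 10. With library totals as the only scaling they were 22 and 5, in the first code range 18 and 9, under a random effect of mouse 2 and 0, and with RNA integrity as a covariate, with only these 2 groups or with the mouse as a block 0 and 0. The 0 members called are therefore not set against a stable share. No member had an unadjusted p under the threshold of 0.05 by edgeR, where 3969 of 15658 genes did, and none passed with DESeq2. The higher and lower genes rose to 1358 and 2123 without UN 7, 1177 and 1888 without UN 3, 978 and 1918 without UT 9, 590 and 1281 without UT 1, and 942 and 1651 with DESeq2. Log2 fold changes were 0.15 for Kmt2d, 0.03 for Kmt2c, 0.18 for Kdm6a, 0.14 for Arid1a, 0.02 for Ep300, 0.02 for Crebbp, 0.04 for Stag2, -0.34 for Pik3ca, 0.27 for Tsc1 and -0.16 for Hras. The interval of Pik3ca was -0.68 to 0.00 (adjusted p = 0.201). Within the 7 mice with both sides, where log2(CPM + 1) was compared, Tsc1 was higher in UT in 6 mice (mean difference 0.45 ± 0.64, SD, two-sided exact sign-flip permutation test, p = 0.141). Pik3ca was lower in UT in 5 of 7 mice (mean -0.07 ± 0.50, exact p = 0.75). The smallest p that 7 mice allow is 0.0156. Without mouse 6, whose UN library was of low total, the mean difference was 0.38 for Tsc1 (exact permutation p = 0.281) and -0.07 for Pik3ca. None of the 10 tests, unadjusted, passed the threshold of 0.05. Mean within-mouse differences of the other genes were 0.38 for Kmt2d, 0.26 for Kmt2c, 0.26 for Kdm6a, 0.42 for Arid1a, 0.20 for Ep300, 0.27 for Crebbp, 0.18 for Stag2 and 0.11 for Hras.

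In the bladder, none of the 10 genes passed in BBN against untreated mice, where 7.72% of the 18050 genes tested were higher and 6.18% lower and 13.3% passed with at least 2-fold. These 1393 higher and 1115 lower genes were 5010 and 1576 with DESeq2, 2288 and 1955 without the libraries of low total, 3112 and 1379 in the first code range, and 528 and 497, 541 and 534, and 532 and 507 without untreated bladder 1, 2 or 3. Kmt2c was the only member with an unadjusted p under the threshold of 0.05 by edgeR, and with DESeq2 none passed. Such a p was held by 5289 of the 18050 genes. Kmt2c was at 20.1, 39.2 and 72.3 CPM in the 10 BBN bladders and at 78.9, 82.1 and 96.9 CPM in the 3 untreated bladders. All 10 BBN bladders were below all 3 untreated bladders, and the log2 fold change was -0.78 (SE 0.32, 95% interval -1.45 to -0.10, adjusted p = 0.134). Without the 3 BBN bladders of low total it was -0.86 (adjusted p = 0.0600), and -0.67 in those of the first code range alone (adjusted p = 0.198). With RNA integrity as a covariate it was -0.83 (adjusted p = 0.0929), and over the libraries left out in turn the adjusted p ran up to 0.365.

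Tsc1 was at 4.26, 22.01 and 32.7 CPM in BBN bladder and at 30.6, 35.3 and 38.2 CPM in untreated bladder, and 8 of 10 BBN bladders were below all untreated ones. Its log2 fold change was -0.73 (SE 0.38, 95% interval -1.54 to 0.07, adjusted p = 0.203), and -0.55 without the libraries of low total (adjusted p = 0.269). The 4 lowest included the 3 of low total and BBN bladder 6, whose sample description carries a T. Hras was at 61.3, 120.2 and 308 CPM in BBN bladder and at 98.1, 102 and 107 CPM in untreated bladder. The highest, BBN bladder 6, had also the lowest level of Kmt2d, Kdm6a, Ep300, Crebbp and Pik3ca in its group. The log2 fold change of Hras was 0.82 (SE 0.50, 95% interval -0.25 to 1.88, adjusted p = 0.278), and 0.82 without the libraries of low total (adjusted p = 0.308). Over the libraries left out in turn it ran from 0.51 to 0.94. Kmt2d had -0.56, Arid1a -0.36 and Stag2 -0.32, and Kdm6a, Ep300, Crebbp and Pik3ca had 0.01, 0.05, -0.05 and 0.10. The intervals of these 4 genes lay between -0.80 and 0.83.

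The effect of BBN on the ureter without cancer was set against its effect on the bladder, as an interaction. Of 18786 genes tested 2.07% passed and none of the 10 members, nor did a member with DESeq2 or at an unadjusted p under the threshold of 0.05 by edgeR. Over all genes 2245 had such a p. The differences in log2 fold change (ureter minus bladder) were -0.04 for Kmt2d, 0.36 for Kmt2c, 0.09 for Kdm6a, 0.27 for Arid1a, 0.01 for Ep300, 0.12 for Crebbp, -0.0018 for Stag2, -0.03 for Pik3ca, 0.12 for Tsc1 and -0.24 for Hras. SEs ran from 0.36 to 0.70, and the interval of Kmt2c was -0.43 to 1.15. The share called rests on few libraries: of 285 higher and 103 lower genes 123 and 26 were left without untreated bladder 1, 148 and 38 without untreated bladder 2, and 129 and 20 without untreated bladder 3. They were 735 and 382 without the libraries of low total, 498 and 222 with RNA integrity as a covariate, 343 and 201 in the first code range, 333 and 47 with library totals as the only scaling, and 470 and 491 with DESeq2. UN and U share mice with the bladders, which this fit leaves out. A random effect for mouse, added after seeing the data, gave 396 and 139 genes and 0 members.

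Between the untreated tissues, Kdm6a, Arid1a and Hras were lower in the ureter than in the bladder. Of 15318 genes tested 31.7% were higher and 33% lower in U, and 30% passed with at least 2-fold, so 3 of 10 lower is close to the background. Kdm6a was at 18.7, 25.7 and 30.4 CPM in U and at 44.9, 45.0 and 46.2 CPM in the 3 bladders. No U library reached a bladder, and the log2 fold change was -0.44 (SE 0.12, 95% interval -0.69 to -0.19, adjusted p = 0.00617). Hras was at 47.0, 52.5 and 67.3 CPM in U and at 98.1, 107 and 102 CPM in bladders 1, 2 and 3. The groups did not overlap, with a log2 fold change of -0.54 (SE 0.14, 95% interval -0.83 to -0.24, adjusted p = 0.00509). Arid1a was at 18.9, 38.3 and 44.7 CPM in U and at 69.7, 57.5 and 64.8 CPM in bladders 1, 2 and 3. These groups did not overlap either, with a log2 fold change of -0.44 (SE 0.18, 95% interval -0.84 to -0.04, adjusted p = 0.0546), and the call of Arid1a was lost without untreated bladder 1 (adjusted p = 0.172) or untreated bladder 3 (adjusted p = 0.122).

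The other 7 genes had log2 fold changes between -0.29 (Ep300) and 0.15 (Stag2) in U against untreated bladder: Kmt2d -0.14, Kmt2c -0.19, Crebbp -0.18, Pik3ca 0.11 and Tsc1 0.12. Without U 3L, Ep300 passed as lower (-0.18, adjusted p = 0.0388) and Tsc1 as higher (0.25, adjusted p = 0.0280). With library totals as the only scaling, where the median of all genes moved from -0.02 to -0.40, 6 genes passed as lower: Kdm6a (-0.81), Arid1a (-0.81), Hras (-0.93), Kmt2c (-0.56), Ep300 (-0.66) and Crebbp (-0.55). Under that scaling 3040 of the 15318 genes were higher and 8123 lower, so 6 of 10 lower is close to the background. Summed urothelium markers were 2817 CPM (median) in U and 22150 CPM in untreated bladder, and all 12 were lower in U, as were 7 of 8 smooth muscle markers (median log2 fold change of the 8, -1.03), while 5 of 5 adipocyte markers were higher. Their part in the lower members was not tested.

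The promoters of these 3 genes and of Tsc1, the members with a call, are shown so that they can be compared. Each line holds the 250 bases before the start of the gene in RefSeq (GRCm38.p6), 5′ to 3′ on the gene's strand, with the GC box GGGCGG or its reverse complement CCGCCC in capitals. They lie at chrX:18162325-18162574 on the plus strand (Kdm6a), chr4:133756770-133757019 on the minus strand (Arid1a), chr7:141194005-141194254 on the minus strand (Hras) and chr2:28640983-28641232 on the plus strand (Tsc1).
Kdm6a: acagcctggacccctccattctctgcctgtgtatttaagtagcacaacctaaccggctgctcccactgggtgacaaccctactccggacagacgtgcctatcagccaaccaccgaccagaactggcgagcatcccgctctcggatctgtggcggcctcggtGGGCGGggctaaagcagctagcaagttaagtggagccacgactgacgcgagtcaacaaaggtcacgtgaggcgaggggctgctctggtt
Arid1a: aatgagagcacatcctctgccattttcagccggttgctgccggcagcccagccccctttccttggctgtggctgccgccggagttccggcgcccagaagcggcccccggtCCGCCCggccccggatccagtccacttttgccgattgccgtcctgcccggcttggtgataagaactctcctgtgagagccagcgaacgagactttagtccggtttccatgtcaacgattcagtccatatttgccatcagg
Hras: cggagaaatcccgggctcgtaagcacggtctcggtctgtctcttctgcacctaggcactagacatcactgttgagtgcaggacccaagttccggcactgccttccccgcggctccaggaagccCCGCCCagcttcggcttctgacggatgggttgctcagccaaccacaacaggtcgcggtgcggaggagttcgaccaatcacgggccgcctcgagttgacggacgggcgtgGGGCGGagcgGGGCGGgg
Tsc1: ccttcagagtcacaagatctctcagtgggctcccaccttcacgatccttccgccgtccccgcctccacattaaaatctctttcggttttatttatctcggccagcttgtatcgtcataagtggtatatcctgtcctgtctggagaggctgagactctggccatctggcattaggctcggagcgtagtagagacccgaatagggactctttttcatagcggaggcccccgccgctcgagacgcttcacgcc
The window of Hras holds 3 GC boxes, those of Kdm6a and Arid1a hold 1 each, and that of Tsc1 holds 0. Arid1a has a second start in the table, not printed, whose window (chr4:133753986-133754235) holds 7 GC boxes at a GC content of 81.6%, so its values depend on the start chosen. Of the 9 members with an entry, 8 had a GC box, against 32.7% of all 32851 windows of that length. In the printed windows GC content was 59.6% for Kdm6a, 61.2% for Arid1a, 65.6% for Hras and 54.4% for Tsc1, and the median of all windows was 52.4%. The sequence CCAAT or its reverse complement was in the Hras window alone of the 4 (33.8% of all windows), and CACGTG in that of Kdm6a alone (6.02% of all windows). These are matches of letters, and no binding was measured.

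Ratios of each gene to its paralog or partner within a library do not depend on library scaling, and 7 of the 40 ratios tested passed an adjusted p of 0.1. The clearest were of Pik3ca to Pik3cb, the other widely expressed catalytic subunit. The log2 ratio was -0.90, 0.23 and 0.99 (lowest, median and highest) in UT, -1.10, 0.07 and 1.28 in UN and -1.29, -1.21 and -0.66 in U. In untreated bladder it was 0.93, 1.24 and 1.69, above every U library. The mean rose by 1.20 in UT against U (0.09 ± 0.50 against -1.10 ± 0.24, SD, n = 11 and 6, two-sided exact permutation test, p = 0.000242, adjusted over the 40 tests p = 0.00970). It was 1.20 higher in UN against U (exact p = 0.0117, adjusted p = 0.0873) and 2.39 lower in U against untreated bladder, a difference of -2.39 (exact p = 0.0119, adjusted p = 0.0873). The latter exact p is the smallest that 6 and 3 libraries allow. U and untreated bladder came from the same 3 mice, which this test leaves out. Pik3ca itself passed in none of these comparisons. Pik3cb was at 60.8, 86.3 and 92.6 CPM in U and at 21.0, 37.4 and 62.7 CPM in UT, with a log2 fold change of -1.39 (adjusted p = 0.000468), and at 17.0, 18.1 and 21.995 CPM in untreated bladder. The ratio stood beside the summed adipocyte markers, which were high in U (16484 to 24133 CPM) and low in untreated bladder (395 to 1126 CPM). The low ratios of UN 9 (-1.10), UT 9 (-0.90) and UN 2 (-0.84) came with 15412, 13420 and 21314 CPM of these markers, but those of BBN bladders 10 (-0.91) and 7 (-0.61) with 40.9 and 44.6 CPM. The part of adipocytes in these ratios was not tested.

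Stag2 to Stag1, the alternative subunits of cohesin, fell in UT against U and in BBN against untreated bladder. The log2 ratio was -0.23, 0.60 and 0.95 in UT and 0.79, 0.995 and 1.33 in U (mean difference -0.52, exact permutation p = 0.00339, adjusted p = 0.0452). In BBN bladder it was 0.12, 0.45 and 0.85 and in the 3 untreated bladders 0.81, 1.004 and 1.08 (mean difference -0.50, exact permutation p = 0.0175, adjusted p = 0.0999). Without the libraries of low total the second was -0.53 (adjusted p = 0.125), and Arid1a to Arid1b passed instead in the bladder (0.43, exact permutation p = 0.0167, adjusted p = 0.0989, against 0.33 and adjusted p = 0.377 with them), with ranges that did not overlap. Arid1a to Arid1b, its paralog in the same remodeller, was 0.06, 0.44 and 0.93 in UT and -0.36, -0.09 and 0.24 in U (mean difference 0.45, exact permutation p = 0.00210, adjusted p = 0.0420). Tsc1 to Tsc2, the pair that forms the complex, was -1.77, -1.08 and -0.54 in UT and -1.91, -1.50 and -1.42 in U (mean difference 0.49, exact permutation p = 0.0131, adjusted p = 0.0873). For all of these ratios the ranges of UT and U overlapped, as did those of Stag2 to Stag1 in the bladder with all libraries. Tsc2 had a log2 fold change of -0.78 in UT against U (adjusted p = 0.00194). Kmt2d to Kmt2c, Crebbp to Ep300, and Kdm6a to the related demethylase Kdm6b did not pass in any of the 5 comparisons. These tests take U and untreated bladder as separate, although the same 3 mice gave both. They also take UT and UN as separate, although 7 mice gave both. Within those mice, a test added after seeing the data, Tsc1 to Tsc2 was higher in UT in 7 of 7 mice, by 0.13, 0.22 and 0.62 (lowest, median and highest), and Arid1a to Arid1b in 7 of 7, by 0.024, 0.23 and 0.49. The mean differences were 0.34 ± 0.21 and 0.25 ± 0.15 (SD), each with the smallest p that 7 mice allow (two-sided exact sign-flip permutation test, p = 0.0156, adjusted over 8 ratios p = 0.0625). With the sides taken as separate the exact permutation p were 0.0700 and 0.121, adjusted over the 40 tests 0.298 and 0.377. Without mouse 6 or mouse 9 both were higher in 6 of 6 mice, where the smallest p is 0.0313 and the adjusted p 0.125. Of the tissue markers in UT against UN, 5 of 8 smooth muscle and 1 of 12 urothelium markers were lower. There 1 of 4 kidney tubule markers was higher, and 0 of 5 adipocyte markers passed (median log2 fold change -1.70). The part of these tissues in the paired ratios was not tested. With 1 value per mouse, where U is 3 mice, none of the 40 ratios passed after adjustment, and the difference of Pik3ca to Pik3cb in UT against U was 1.18 (exact permutation p = 0.00699, adjusted p = 0.233). With 3 mice in U this had little room to pass: the smallest one-sided p is 0.0035 in UT against U, 0.0083 in UN against U and 0.05 in U against untreated bladder.

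**Figure D3:**
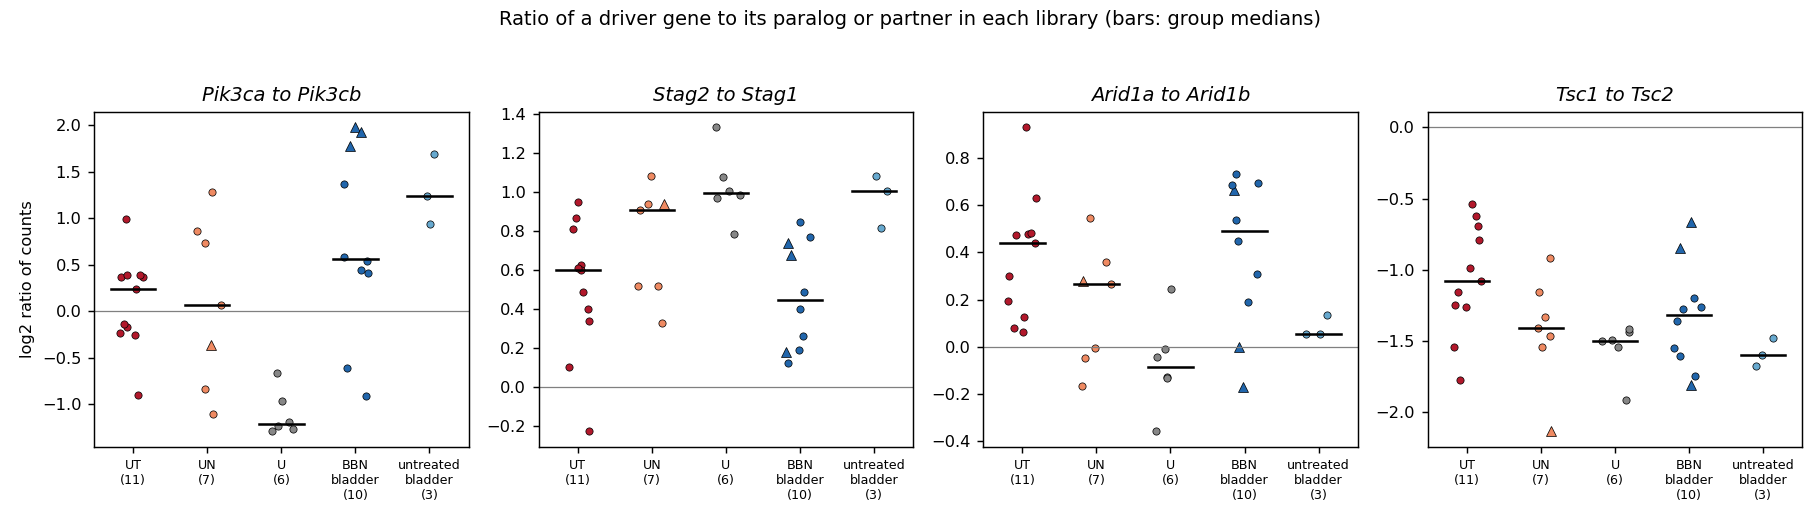
The vertical axis is the log2 ratio of counts of the driver gene to its paralog or partner, each point is 1 library, bars are group medians and triangles are libraries under 9 M counts. The 6 U libraries lie at or below -0.66 for Pik3ca to Pik3cb, while the 3 untreated bladders lie at or above 0.93.

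The genes that work with the members were read from lists of complexes and pathways. In UT against U, where 30.1% of all genes were higher and 22.4% lower, 2 of 12 other genes of the H3K4 methylation complexes passed as higher and none as lower: Ash2l (0.61, adjusted p = 0.00445) and Wdr5 (0.49, adjusted p = 0.0215), core subunits. Of 16 other SWI/SNF genes 2 were higher and 5 lower, among them Smarcd3 (-1.20), a subunit of muscle, Smarcc2 (-1.25) and Smarce1 (0.69). Of 7 other histone acetyltransferases 2 were higher and 2 lower, with Kat2b at -0.70, Kat2a at 0.50 and Kat5 at 0.35, but 0 were higher and 1 lower with RNA integrity as a covariate. Of 10 cohesin genes 2 were higher, Ctcf (0.46) and Nipbl (0.35), which loads cohesin, but 1 was higher without U 3L, with RLE normalization or in the first code range. The medians of the 4 lists were 0.23, 0.11, 0.21 and 0.12, beside 0.11 for all genes.

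Of 15 other PI3K and mTOR genes 2 were higher and 8 lower, with a median of -0.38: Pik3cb (-1.39), the regulatory subunit Pik3r1 (-1.60) and the kinase Akt2 (-1.46) had the smallest adjusted p. Of 12 other RAS and RAF genes 3 were higher and 2 lower, among them Nras (1.06, adjusted p = 0.000309), which rose, and Rras (-1.16, adjusted p = 0.000305), which fell. Of 22 other genes mutated in urothelial cancer 10 were higher and 4 lower, with a median of 0.35, led by Cdkn1a (2.95, adjusted p = 4.97e-06), the p53-induced inhibitor of the cell cycle, Trp53 (1.45, adjusted p = 0.000125) and Rb1 (-1.38, adjusted p = 0.000207). With library totals as the only scaling the counts were 3 higher and 4 lower for PI3K and mTOR, 6 and 2 for SWI/SNF, 5 and 0 for H3K4 methylation, 4 and 1 for the acetyltransferases, 4 and 0 for cohesin, 3 and 1 for RAS and RAF, and 13 and 2 for the other mutated genes, and the median of the RAS and RAF list changed sign from -0.15 to 0.14, where 6535 of all 15658 genes were higher and 2215 lower. The lower PI3K genes stand beside the adipocyte and smooth muscle markers, which were lower in the same comparison, and their part in the result was not tested.

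In BBN against untreated bladder, where 7.72% of all genes were higher and 6.18% lower, 1 of 10 cohesin genes was higher, Rad21 (0.95, adjusted p = 0.0720). Lower were 1 of 7 other histone acetyltransferases (Kat6b, -0.92, adjusted p = 0.0988) and 1 of 15 PI3K and mTOR genes (Pik3r1, -1.18, adjusted p = 0.0173). So were 2 of 12 RAS and RAF genes (Braf, -1.33, and Mras, -0.82) and 1 of 22 other mutated genes (Rxra, -1.34, adjusted p = 0.00668). Across the other settings the count of lower acetyltransferases fell in 4 and rose in 1, and that of higher cohesin genes fell in 2. That of lower RAS and RAF genes fell in 1, and those of lower PI3K and other mutated genes rose in 3 and 2. None of 12 H3K4 methylation and none of 16 SWI/SNF genes passed by edgeR. At an unadjusted p under the threshold of 0.05 these were 1 (Dpy30, 1.62) and 3 (Arid1b, Smarca4 and Brd9, all lower in the fit), and DESeq2 called 1 higher and 2 lower genes of the respective lists. Over all genes 5289 of 18050 had such a p by edgeR, so the counts at that threshold are not above the background. DESeq2 called 5010 of all 18050 genes higher and 1576 lower.

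**Figure D4:**
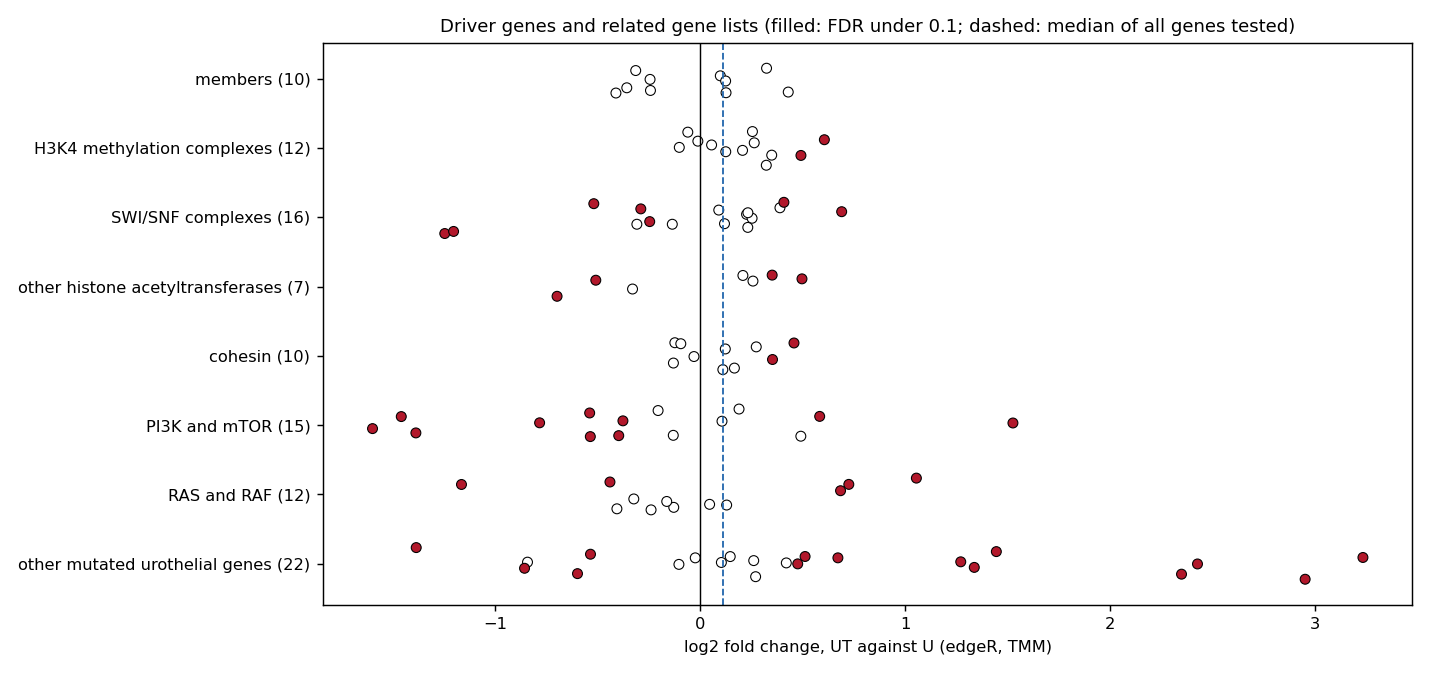
Each point is 1 gene, placed by its log2 fold change in UT against U, and filled where it passed an FDR of 0.1. The 10 members lie between -0.41 and 0.43 and none is filled, while the other mutated urothelial genes reach from -1.38 to 3.23.

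Across the 37 libraries, pooled over groups, the 9 members other than Hras were positively correlated. Spearman's rho between their log2(CPM + 1) had a median of 0.68 over 36 pairs, from 0.41 to 0.88, the highest being between Arid1a and Crebbp. Within the 11 UT libraries the median was lower, 0.49, with a range from -0.14 (Kmt2c and Ep300) to 0.82 (Arid1a and Crebbp). With Hras, the rho of the 9 others ran from -0.41 (Tsc1) to 0.15 (Kdm6a). The libraries share mice and differ in depth, RNA integrity and tissue, so these values describe the set without a test. UT 8 was the highest UT library for 8 of the 10 genes, UN 7 the highest of its group for 7, and U 3L the lowest of its group for 9. BBN bladder 6 had the lowest level of 4 genes of all 37 libraries, and the highest of Hras. The genes whose pattern was most like the mean of the 10 standardized members, of 15374 ranked, were Ambra1 (rho 0.95), Ralgapb (0.94) and Spen (0.94), while Hras itself had a rho of 0.03 with that mean.

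**Figure D5:**
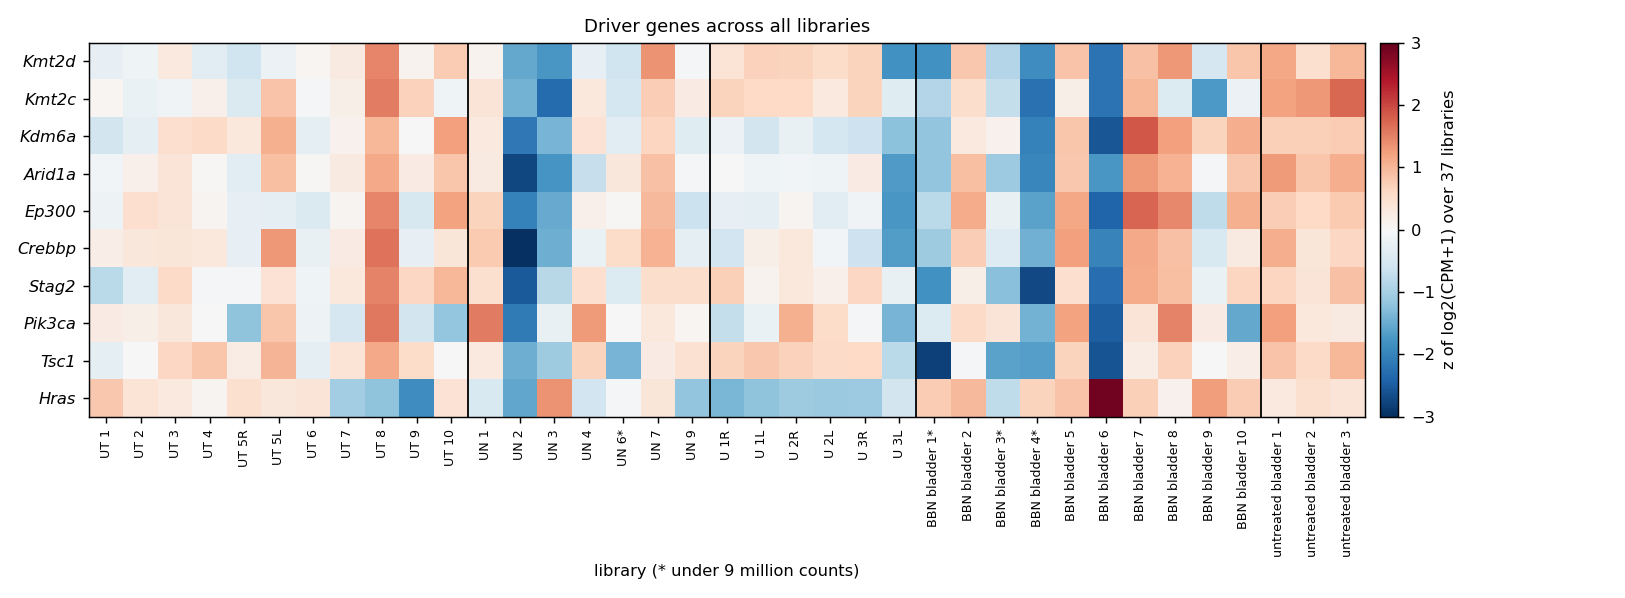
Rows are the 10 genes and columns the 37 libraries by group, coloured by the z value of log2(CPM + 1) over all libraries, with an asterisk on libraries under 9 M counts. Columns such as UN 2, U 3L, BBN bladder 4 and BBN bladder 6 are blue for most of the first 9 rows, and the row of Hras differs from the rest.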

How the data were processed

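Whole-transcriptome libraries were made from 37 mouse ureters and bladders with a kit that does not mark strand. The authors deposited estimated counts per gene symbol (21.1% of nonzero values were fractional), which were rounded to whole numbers. The submitters' processing notes name TopHat2 2.1.1, Cuffdiff 2.2.1 and GRCm38 (mm10), without a role. The program that made the counts is not given in the sources used here, and 0 columns were left out. Depth limits precision as the totals in the report show.

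Groups came from the sample labels. Genes were filtered by expression, normalized by TMM and tested over all genes with edgeR 4.0.16 (R 4.3.3) by its quasi-likelihood test with Benjamini-Hochberg adjustment. A gene was called at an FDR under 0.1. The 3 ureter groups shared a fit, and the other comparisons had their own. DESeq2 1.42.0 and limma 3.58.1 served for alternatives, and the scripts were tested on simulated data. CPM are counts-per-million of the library total. Ratios add 0.5 to each count and were compared by exact permutation tests, two-sided. The 10 members, the lists and the alternatives were chosen with earlier results of these data known. Beside the members, the genes named from each list were those with the smallest adjusted p among its called genes, at most 3. Results of 1 further gene are not reported here. Over the 7 mice with both sides, same-mouse deviations had a median correlation of 0.0023 (from -0.19 to 0.70), and the mouse is the source of the pairing. Promoter sequences are from RefSeq (GRCm38.p6), where 9 of the 10 members had an entry.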

Additional observations from a re-analysis of the deposited data

Results flagged for a closer look

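In the 6 U libraries, U 3L lay far from the other 5 for 6 of the 10 genes, by Dixon's ratio of the gap to the range (critical value 0.625). It had the lowest CPM of Kmt2d (8.14), Kmt2c (42.4), Arid1a (18.9), Ep300 (20.1) and Tsc1 (14.1), and the highest of Hras (67.3). In all, 30 pairs of a gene and a group were examined, of which chance flags about 1 in 20, and the 6 come from 1 library and are not independent. U 3L also had the highest summed adipocyte markers of U (24133 CPM). The cause was not tested.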

How the results depend on the processing

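Counts of called members changed as follows. In UT against U, 1 gene was lower with DESeq2, with RLE normalization and without the libraries of low total (0 in the report), 2 were higher with library totals as the only scaling, 1 higher and 3 lower within the first code range, 1 and 2 with the range as a covariate, and 1 and 1 with only the 2 groups. Over all genes 3928 and 3695 of 15658 and 4028 of 15587 were lower in the first 3 of these settings. The higher and lower in the last 4 were 6535 and 2215 of 15658, 4422 and 3709 of 15496, 4869 and 3642 of 15658, and 5202 and 3933 of 15357, so the member counts are close to the background or under it. Over libraries left out in turn, 0 to 2 were lower. In UN against U the 1 lower gene became 0 with totals as the only scaling, with no filter, with the mouse as a random effect or with only the 2 groups, and 0 to 1 with libraries left out. It became 2 within the first range, and 1 gene was higher with the range as a covariate. There, 1645 of 15496 genes were lower within the first range and 3073 of 15658 higher with the covariate. In BBN bladder 1 gene was lower with RNA integrity as a covariate or without the libraries of low total, where 1621 of 18050 and 1955 of 15735 genes were lower. In U against untreated bladder 6 were lower with totals as the only scaling, and with libraries left out 2 to 4 were lower (2 without untreated bladder 1 or 3, 4 without U 3L) and 0 to 1 higher. With 1 value per mouse 0 paralog ratios passed, where 3 mice in U allow a one-sided p of 0.0035 at the smallest against UT, so this says little about stability. The cause of these changes was not tested. Library totals as the only scaling, the first code range alone, and the interaction without each untreated bladder or with a random effect for mouse, and the paired test of the ratios were added after seeing the data.

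Log2 fold changes of uncalled members changed sign in these settings. With library totals as the only scaling, these were in UT against U, Stag2 0.040, Pik3ca 0.035 and in UT against UN, Hras 0.11 and in BBN bladder against untreated bladder, Kdm6a -0.21, Ep300 -0.18, Pik3ca -0.24 and in U against untreated bladder, Stag2 -0.22, Pik3ca -0.26, Tsc1 -0.25 and in the interaction, Kmt2d 0.23, Stag2 0.28, Pik3ca 0.36, Hras 0.21. In the first code range, these were in UT against U, Arid1a -0.032, Ep300 -0.047 and in UT against UN, Kmt2d -0.079, Ep300 -0.11, Stag2 -0.035 and in BBN bladder against untreated bladder, Kdm6a -0.11 and in the interaction, Kmt2d 0.055, Ep300 -0.037, Crebbp -0.024. With RNA integrity as a covariate, these were in UN against U, Crebbp -0.034 and in BBN bladder against untreated bladder, Pik3ca -0.069 and in the interaction, Pik3ca 0.042. With mouse as a random effect, these were in UN against U, Ep300 -0.0052, Crebbp -0.069 and in the interaction, Kmt2d 0.13, Stag2 0.013, Pik3ca 0.034. Without low-total libraries, these were in UN against U, Kdm6a -0.033, Ep300 -0.12, Crebbp -0.19, Pik3ca -0.065 and in BBN bladder against untreated bladder, Pik3ca -0.11 and in the interaction, Kdm6a -0.067, Arid1a -0.064, Ep300 -0.17, Crebbp -0.064, Pik3ca 0.078, Tsc1 -0.0083. With library code range as a covariate, these were in UT against UN, Kmt2d -0.011, Kmt2c -0.019, Ep300 -0.040, Stag2 -0.056. With DESeq2, these were in BBN bladder against untreated bladder, Crebbp 0.049 and in the interaction, Kdm6a -0.020, Ep300 -0.10, Crebbp -0.011. With RLE normalization, these were in BBN bladder against untreated bladder, Crebbp 0.055 and in the interaction, Kdm6a -0.019, Ep300 -0.099, Crebbp -0.0094. With no filter on low counts, these were in BBN bladder against untreated bladder, Kdm6a -0.047, Ep300 -0.0042.

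With the mouse as a replicate block, UT against UN called 0 members, and Ep300 (-0.019) and Stag2 (-0.048) changed sign. In U against untreated bladder the block kept 3 members lower, Kdm6a -0.45, Arid1a -0.45 and Hras -0.55, and changed no other call. Paired within mice, Pik3ca to Pik3cb in UT against UN changed sign, to -0.053 (-0.095 without mouse 9, -0.099 without mouse 6), and Tsc1 to Tsc2 and Arid1a to Arid1b passed, as the report gives.

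Leaving out each library changed the sign of these, given as lowest and highest values: in BBN bladder against untreated bladder, Crebbp -0.17 to 0.031, Ep300 -0.019 to 0.15, Kdm6a -0.091 to 0.11, Pik3ca -0.0011 to 0.21. Also in the interaction, Kmt2d -0.18 to 0.13, Pik3ca -0.14 to 0.055, Stag2 -0.079 to 0.086. Also in U against untreated bladder, Kmt2d -0.31 to 0.068. Also in UN against U, Arid1a -0.35 to 0.094, Crebbp -0.19 to 0.24, Ep300 -0.12 to 0.22, Kdm6a -0.033 to 0.25, Pik3ca -0.065 to 0.18. Also in UT against U, Arid1a -0.020 to 0.16. Also in UT against UN, Crebbp -0.12 to 0.28, Ep300 -0.089 to 0.21, Hras -0.25 to 0.058, Kmt2c -0.10 to 0.14, Kmt2d -0.021 to 0.46, Stag2 -0.092 to 0.14. For the bladder, the mouse as a random effect was not run, since each mouse gave 1 bladder.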
